A study of Arabidopsis thaliana with 8 samples.

Results

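BGLU25 (AT3G03640), BGLU33 (AT2G32860) and BGLU45 (AT1G61810) are 3 Arabidopsis thaliana genes of the beta-glucosidase family, chosen by their RefSeq symbols for the way their transcript levels shifted when wild-type seedlings were moved from solid to liquid medium. All 3 were measured, each by 1 probe set, among the 16554 genes tested, together with 21 other genes of the same enzyme family. Their levels are followed here over 4 groups of 2 arrays, each array holding RNA of a separate pool of about 120 whole seedlings, 7 days old and of the Columbia background. The study asked what impaired formins, the proteins that nucleate and elongate actin filaments, do to transcript levels.

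The SMIFH2 liquid group was wild type given 20 uM SMIFH2, a compound that blocks the actin-assembling FH2 domain of formins, during 1 day of shaking in liquid MS medium under continuous light, after 6 days on solid medium. The fh1-1 solid group carried the fh1-1 mutation of FH1, which encodes a membrane-anchored formin, and stayed on solid MS medium in 16 h light and 8 h dark. The control liquid group was wild type treated as the SMIFH2 group but without the inhibitor, and whether it received the solvent is not given in the sources used here. The wild type solid group was treated as the mutant. All wild-type seedlings came from a backcrossed sister of the mutant line. Medium, light regime and shaking thus changed together, and their parts cannot be told apart.

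Beta-glucosidases of glycoside hydrolase family 1 cut glucose off small glucosides and so release the hormone, defence compound or lignin precursor that the sugar had kept inactive or soluble. The plant family is large, and its members differ in substrate, organ and cell compartment. BGLU25 belongs to the branch of PYK10, the abundant enzyme of root ER bodies, which are endoplasmic-reticulum-derived stores of beta-glucosidase. BGLU45 belongs with BGLU46 and BGLU47 to the branch that acts on monolignol glucosides such as coniferin, the glucosylated precursors of lignin. No substrate is named here for BGLU33.

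Values are log2 expression, so a difference of 1 is a doubling, and levels are compared between groups for one gene but not between genes. Across all probe sets, the 2 arrays of each group had a Pearson r of 0.977 to 0.986. The fh1-1 solid and SMIFH2 liquid arrays correlated with each other at r = 0.981 to 0.983, although they differed in genotype, drug, medium and light. The control liquid and wild type solid arrays correlated at r = 0.967 to 0.972. No probe set is listed for FH1, so the mutant label was not checked against its transcript. Whether any label was exchanged was not tested, and every comparison takes the groups as labelled. All 24 values of the 3 genes lay above the lower quartile of their array, which was 2.13 to 2.24 and is not a measured background. BGLU45 lay below the array median in wild type solid (3.55 and 3.25) and in SMIFH2 liquid (3.62 and 3.89).

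In whole seedlings, fewer cells of a type and less transcript per cell cannot be told apart. The 3 genes had 3 different profiles over the 4 groups. BGLU25 was high in both liquid groups and low in both solid groups. BGLU33 was low in wild type on solid medium only and higher in the other 3 groups. BGLU45 was high in the liquid control only.

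BGLU25 had 7.79 and 7.70 in the SMIFH2 liquid arrays, 5.74 and 5.79 in the fh1-1 solid arrays, 8.45 and 8.82 in the control liquid arrays, and 6.12 and 6.05 in the wild type solid arrays. No 2 groups overlapped, and the 4 liquid arrays lay at least 1.58 above the 4 solid arrays. In order of their means the groups were control liquid (8.64), SMIFH2 liquid (7.74), wild type solid (6.09) and fh1-1 solid (5.77). The last 2 of these differed by 0.32, less than the half-width of 0.36 of a 95% interval.

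BGLU33 had 7.03 and 6.83 with SMIFH2 in liquid, 7.23 and 7.48 in fh1-1 on solid medium, 6.48 and 6.51 in the liquid control, and 5.18 and 4.76 in wild type on solid medium. Here the order was fh1-1 solid (7.36), SMIFH2 liquid (6.93), control liquid (6.50) and wild type solid (4.97), again with no overlap. The first 2 steps of this order, 0.42 and 0.44, were just over the half-width of 0.41, and the third was 1.52. The largest step thus set wild type on solid medium apart below the upper 3 groups, whose own means ran from 6.50 to 7.36.

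BGLU45 had 3.62 and 3.89 with SMIFH2 in liquid, 4.30 and 4.30 in fh1-1 on solid medium, 5.33 and 5.23 in the liquid control, and 3.55 and 3.25 in wild type on solid medium. The order was control liquid (5.28), fh1-1 solid (4.30), SMIFH2 liquid (3.75) and wild type solid (3.40). The lowest pair differed by 0.35, less than the half-width of 0.37, with only 0.06 between their nearest arrays. The liquid control stood 0.98 above the next group.

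**Figure D1:**
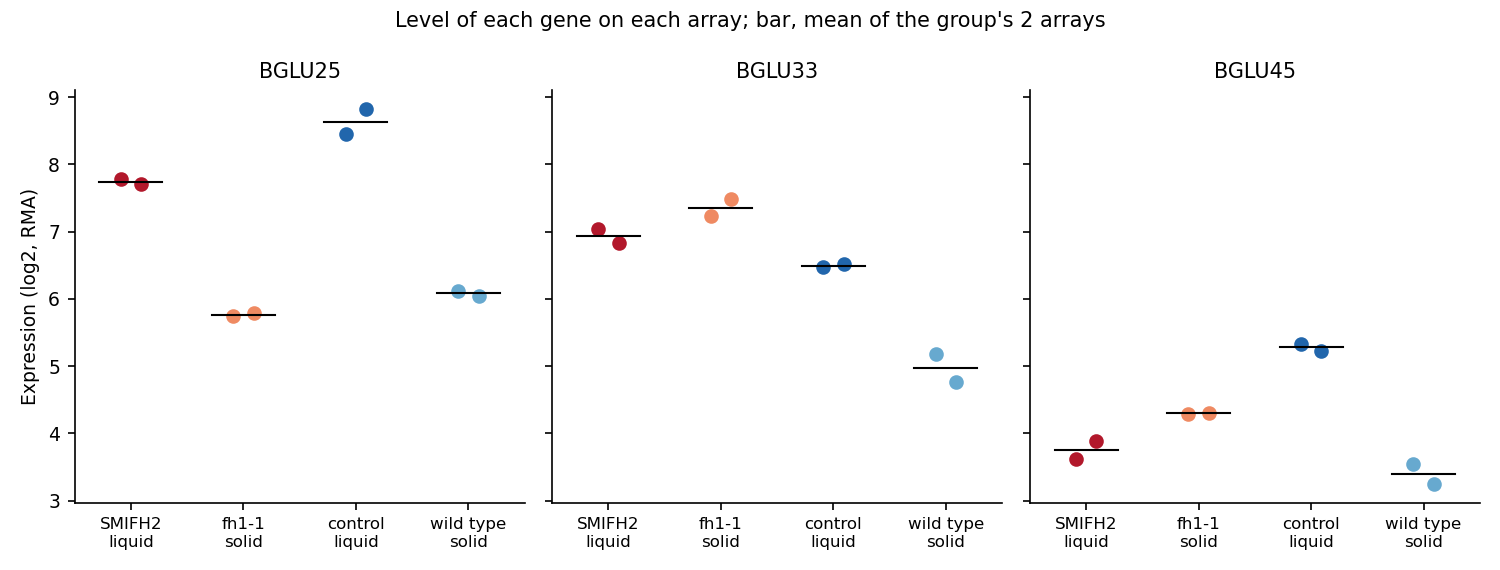
Log2 expression (vertical axis) of BGLU25, BGLU33 and BGLU45 on each of the 8 arrays, by group, with a bar at the mean of each group's 2 arrays. BGLU25 separates the liquid from the solid arrays, BGLU33 is lowest in wild type on solid medium (mean 4.97), and BGLU45 is highest in the liquid control (mean 5.28).

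The shift from solid to liquid medium in wild type is the comparison the genes were chosen by, so its values are given as a description with no test. In the liquid control against wild type on solid medium, BGLU25 was higher by 2.55 ± 0.16 (SE, n = 2 arrays per group), BGLU45 by 1.88 ± 0.17 and BGLU33 by 1.52 ± 0.18. These correspond to 5.86-fold, 3.68-fold and 2.88-fold. Of the 16554 genes, 15 had a larger shift upward than BGLU25, 34 a larger one than BGLU45 and 70 a larger one than BGLU33. Over all genes 4.71% passed in this comparison at a limma adjusted p under 0.05, with 2.22% higher and 2.48% lower.

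Of the 21 other family members, 4 passed in the same comparison. BGLU44 (AT3G18080) was higher by 0.98 ± 0.15 at an adjusted p of 0.0057 and BGLU40 (AT1G26560) by 0.83 ± 0.14 at 0.011 (limma). The root ER-body enzymes BGLU21 (AT1G66270) and BGLU22 (AT1G66280) changed by -0.99 ± 0.21 and -0.79 ± 0.17, at adjusted p values of 0.027 and 0.031. None of these 4 shifts was as large as that of BGLU33, but BGLU33 was chosen by this comparison, so the ranking says nothing about the family. BGLU44 passed in every alternative fit. BGLU40 was not called once array 2 of wild type solid was left out (adjusted p = 0.068), BGLU21 without that array or either control liquid array (0.074 to 0.13), and BGLU22 without any single wild type solid, control liquid or SMIFH2 array (0.051 to 0.17). The 4 calls were 1 without array 2 of wild type solid and 2 without either control liquid array. With only the 4 arrays compared in the fit, BGLU44 alone passed, and over every probe set BGLU40 and BGLU44 did.

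The arrays with impaired formins held a liquid and a solid group as well, and neither is part of the solid to liquid comparison in wild type. The genes were nevertheless chosen with earlier results of these data known, so the values below are not an independent test. In SMIFH2 liquid against fh1-1 solid, BGLU25 rose by 1.98 ± 0.16 (limma, adjusted p = 0.0035, 95% interval 1.61 to 2.34), which is 3.94-fold. Only 3 of the 16554 genes had a larger rise. This comparison differs in genotype and drug as well as in medium, light and shaking, and these cannot be told apart. Few genes passed in it: 24 in limma, or 0.145% of those tested (0.115% higher and 0.0302% lower), and 1201 at an unadjusted p under 0.05.

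BGLU33 and BGLU45 had differences of the opposite sign in the same comparison. BGLU33 had -0.42 ± 0.18 (95% interval -0.83 to -0.02, adjusted p = 0.66) and BGLU45 -0.55 ± 0.17 (95% interval -0.92 to -0.17, adjusted p = 0.51). Neither passed the threshold over all genes, although both intervals lay below 0. On these arrays, therefore, only BGLU25 of the 3 was higher in liquid than on solid medium.

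The BGLU25 difference itself was between 1.93 and 2.02 under all 16 alternatives. The adjusted p came to 0.0776 when array 1 of fh1-1 was left out, 0.0895 without array 2 of fh1-1, 0.102 without array 2 of SMIFH2 and 0.0951 over every probe set. Without array 1 of SMIFH2 it passed, and over all alternatives its adjusted p ranged from 4.4e-05 to 0.102.

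**Figure D2:**
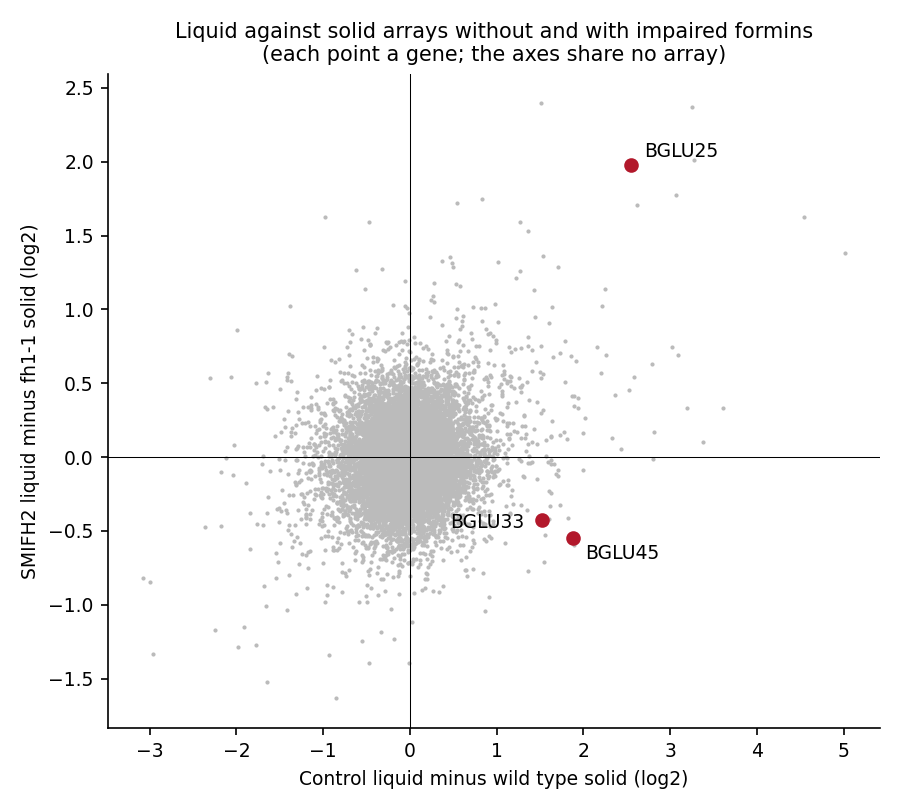
Each point is 1 of 16554 genes, placed by its log2 difference between control liquid and wild type solid (horizontal axis) and between SMIFH2 liquid and fh1-1 solid (vertical axis), and the axes share no array. BGLU25 lies far up on both axes (2.55 and 1.98), while BGLU33 and BGLU45 lie to the right but below 0 on the vertical axis (-0.42 and -0.55).

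Of the 19 genes that were higher in SMIFH2 liquid than in fh1-1 solid, 12, or 63.2%, were also higher in the liquid control than in wild type on solid medium, and those 12 were 3.26% of the 368 genes higher there. BGLU25 is one of the 12. Without array 1 or 2 of fh1-1 or array 2 of SMIFH2 no gene passed in SMIFH2 liquid against fh1-1 solid in limma, with 839, 860 and 1079 genes at an unadjusted p under 0.05, and without array 1 of SMIFH2 5 genes passed.

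The next comparisons set each impairment against its own control. BGLU25 and BGLU45 fell with SMIFH2 in liquid medium, where BGLU33 did not pass the threshold. BGLU33 and BGLU45 rose in fh1-1 on solid medium, where BGLU25 did not pass the threshold. Each comparison shares 1 group of 2 arrays with the solid to liquid comparison, so chance deviations of those arrays enter both. Choosing genes that were higher in the liquid control than in wild type solid favours falls with SMIFH2 and rises in fh1-1. The adjusted p values do not allow for this.

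With SMIFH2, BGLU45 fell by 1.53 on the log2 scale (SE 0.17, 95% interval -1.90 to -1.15, adjusted p = 0.000302, limma), to a mean of 3.75 in treated seedlings, against 5.28 in the liquid control. BGLU25 fell by 0.89 (SE 0.16, 95% interval -1.26 to -0.53, adjusted p = 0.0054), to 7.74 with SMIFH2, against 8.64 in the control. BGLU33 had a difference of 0.44 ± 0.18 (95% interval 0.03 to 0.84, adjusted p = 0.16), with means of 6.93 with SMIFH2 and 6.50 in the control. In this comparison 14.9% of all genes passed, 7.78% higher and 7.07% lower, and 115 genes had a larger fall than BGLU45.

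In fh1-1 on solid medium, BGLU33 rose by 2.38 ± 0.18 (95% interval 1.98 to 2.79, adjusted p = 1.96e-05, limma), which is 5.22-fold, to a mean of 7.36 in the mutant, against 4.97 in wild type. Its rise exceeded its own shift between liquid and solid medium in wild type (1.52), and 112 genes had a larger rise. The summed linear level of the measured shoot markers, set mostly by RCA, SBPASE and HPR, was also higher in the mutant. This sum was 4981 and 4854 in the mutant and 1517 and 1471 in wild type, and its part in the result was not tested. BGLU45 rose by 0.90 ± 0.17 (95% interval 0.53 to 1.27, adjusted p = 0.0039), to 4.30 in the mutant, against 3.40 in wild type. BGLU25 had a difference of -0.32 ± 0.16 (95% interval -0.68 to 0.05, adjusted p = 0.21), with 5.77 in the mutant and 6.09 in wild type. In this comparison 22.6% of all genes passed, 10.9% higher and 11.7% lower.

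These calls kept their direction and their side of the threshold in all 16 alternatives. The alternatives use the same baseline groups and so do not remove the effect of the choice of genes. The changes that passed ranged from 2.17 to 2.59 for BGLU33 and from 0.75 to 1.05 for BGLU45 in fh1-1, and from -1.07 to -0.71 for BGLU25 and from -1.66 to -1.39 for BGLU45 with SMIFH2.

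**Figure D3:**
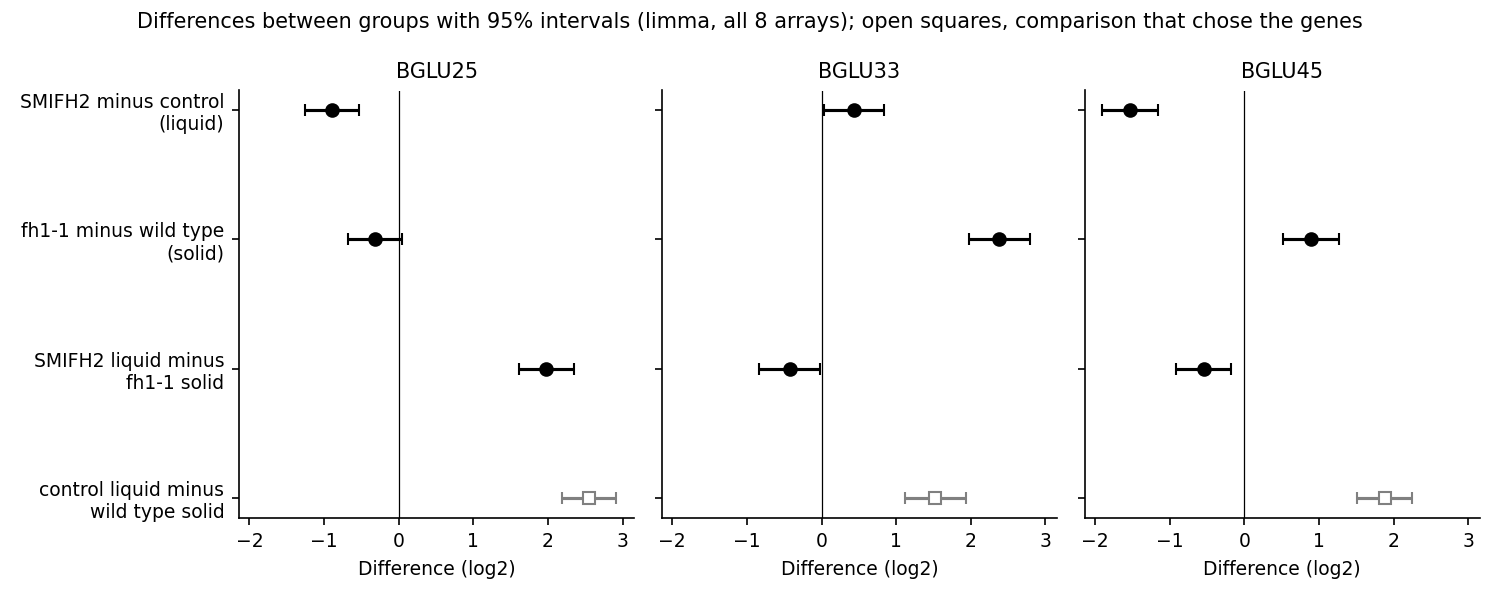
Log2 differences between groups with 95% intervals (horizontal axis) for each gene in 4 comparisons, with open squares for the comparison that chose the genes. BGLU45 lies below 0 with SMIFH2 (-1.53) and above 0 in fh1-1 (0.90), BGLU33 is farthest from 0 in fh1-1 (2.38), and BGLU25 is above 0 where liquid arrays are set against solid ones.

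BGLU45 can be set beside its relatives of the same branch, BGLU46 (AT1G61820) and BGLU47 (AT4G21760). BGLU46 is also the nearest measured protein-coding gene on one side of BGLU45, and its probe set was a separate one. BGLU46 had 5.36 and 5.17 with SMIFH2, 6.30 and 5.88 in fh1-1, 5.39 and 5.33 in the liquid control, and 5.06 and 5.27 in wild type on solid medium. BGLU47 had 3.11 and 2.995 with SMIFH2, 4.65 and 3.92 in fh1-1, 1.63 and 1.97 in the liquid control, and 2.09 and 1.88 in wild type on solid medium. The control levels of BGLU47 lay under the lower quartile of the arrays, so its fold changes rest on values not shown to be above background.

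Like BGLU45, both relatives rose in fh1-1, BGLU46 by 0.93 ± 0.18 (adjusted p = 0.0047, limma) and BGLU47 by 2.30 ± 0.23 (adjusted p = 0.00011). With SMIFH2 the 3 genes did not move alike: BGLU45 fell, BGLU47 rose by 1.25 ± 0.23 (adjusted p = 0.0062), and BGLU46 had a difference of -0.10 ± 0.18 (adjusted p = 0.79). Neither relative had the liquid control as its highest group, and between liquid control and wild type on solid medium they had differences of 0.20 ± 0.18 and -0.18 ± 0.23. BGLU46 missed the threshold in fh1-1 without array 1 of fh1-1 (adjusted p = 0.053), and BGLU47 missed it with SMIFH2 without array 1 of SMIFH2 (0.051).

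**Figure D4:**
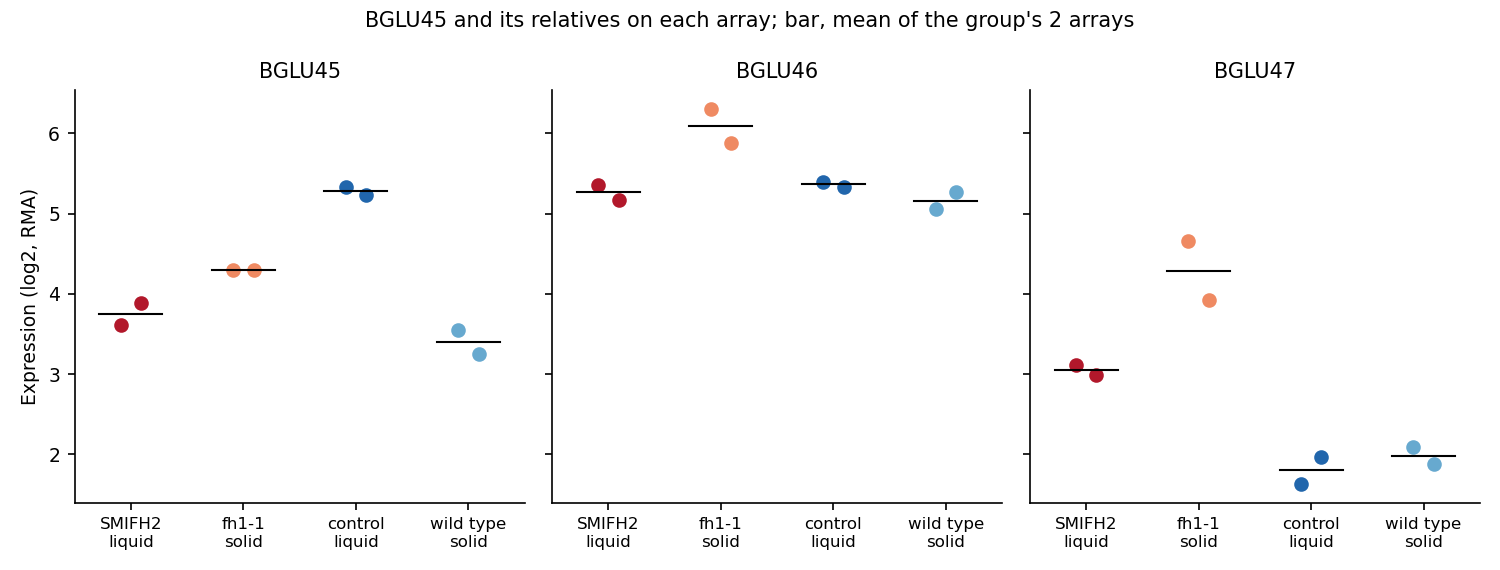
Log2 expression (vertical axis) of BGLU45, BGLU46 and BGLU47 on each array, by group, with a bar at the mean of each group's 2 arrays. All 3 are higher in fh1-1 than in wild type on solid medium, BGLU45 is highest in the liquid control (mean 5.28), BGLU47 is low in both groups without impaired formins (means 1.80 in liquid and 1.99 on solid medium), and levels are not compared between genes.

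Genes of monolignol and lignin synthesis were listed as the pathway beside BGLU45, and 8 of 34 were measured. The list also held glycosyltransferases, of which UGT72E1, UGT72E2, UGT72E3 and GT72B1 were measured. The UGT72E genes are counted again among the UDP-glycosyltransferases below. In fh1-1, 5 of the 8 fell, beside 11.7% of all genes, with a list median of -0.57 beside -0.05 over all genes. The glycosyltransferase gene GT72B1 was one of the 5, at -0.51 ± 0.14 (adjusted p = 0.0306, limma). The peroxidase gene PRX52 (AT5G05340) changed by -1.78 ± 0.36 (adjusted p = 0.0061, limma) and the peroxidase gene AT5G66390 by -1.47 ± 0.15 (9.5e-05). CCOAMT (AT1G67980), which encodes a caffeoyl-CoA methyltransferase, changed by -1.07 ± 0.33 (0.04). CCOAMT had means of 1.61 with SMIFH2 and 1.47 in fh1-1, under the lower quartile of the arrays, so these are not shown to be above background. With SMIFH2, 2 of the 8 fell, beside 7.07% of all genes: CCOAMT by 1.20 ± 0.33 (adjusted p = 0.035) and AT5G66390 by 0.61 ± 0.15 (adjusted p = 0.021), with a median of -0.06 beside -0.02.

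The lignin counts depended on the arrays kept, and the counts over all genes also fell when any array of the groups compared was left out. The 5 calls in fh1-1 were 2 without array 1 of wild type solid or array 1 of fh1-1 and 1 without array 2 of either. AT5G66390 passed in fh1-1 in all 16 alternatives. PRX52 was not called once array 2 of wild type solid was left out (adjusted p = 0.055) or of fh1-1 (0.056), and CCOAMT once any 1 array of these groups was left out (0.0747 to 0.197) or of SMIFH2 (0.0562). With SMIFH2, CCOAMT missed it without either fh1-1 array (0.055), array 1 of the control (0.14) or either SMIFH2 array (0.0928 and 0.175), and AT5G66390 without either control array (0.055 and 0.068) or array 1 of SMIFH2 (0.13). Both thus missed it without array 1 of the control or array 1 of SMIFH2.

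BGLU25 can be set beside the ER-body genes of its branch's best known member. PYK10 (AT3G09260) did not pass in any comparison and differed by -0.49 ± 0.14 between liquid control and wild type on solid medium (adjusted p = 0.082), where BGLU25 was higher by 2.55. Of 7 measured ER-body genes other than beta-glucosidases, 4 were lower in the liquid control than in wild type on solid medium, beside 2.48% of all genes, with a median of -0.82 beside -0.03. In fh1-1 3 of the 7 were lower, beside 11.7% of all genes, among them the lectin gene JAL33 (AT3G16450) at -0.71 ± 0.16 (adjusted p = 0.009). With SMIFH2 3 were higher, beside 7.78%, among them NAI2 (AT3G15950), which is needed for ER-body formation, at 1.21 ± 0.17 (adjusted p = 0.0011). BGLU25 fell with SMIFH2, the direction opposite to NAI2.

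The ER-body counts likewise depended on the arrays kept. No member passed in fh1-1 without array 2 of wild type solid or array 1 of fh1-1 (limma), 1 passed without array 2 of fh1-1, and 1 passed with SMIFH2 without array 1 of the control or array 2 of SMIFH2. JAL33 had an adjusted p of 0.051 without array 2 of wild type solid and 0.067 without array 1 of fh1-1. NAI2 passed in all 16 alternatives. The 4 genes lower in the liquid control than in wild type solid became 2 with only the 4 arrays compared and 3 over every probe set (limma). They became 5 with the filter on low levels or the trended robust prior.

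Over the family as a whole, 9 of the 21 other members passed in fh1-1 (4 higher, 5 lower), beside 22.6% of all genes, and the median was -0.09 beside -0.05. With SMIFH2 7 passed (5 higher, 2 lower), beside 14.9%, and the median was 0.17 beside -0.02. BGLU44, which acts on mannosides in the test tube, rose in both, by 1.49 ± 0.15 in fh1-1 (adjusted p = 0.000101, limma) and by 0.77 ± 0.15 with SMIFH2 (0.0075). BGLU16 (AT3G60130) fell in both, by 0.95 ± 0.15 (adjusted p = 0.0016) and 0.60 ± 0.15 (adjusted p = 0.026). BGLU15 (AT2G44450), a glucosidase of flavonol glycosides, fell by 0.95 ± 0.16 with SMIFH2 (adjusted p = 0.0031) and by 0.50 ± 0.16 in fh1-1 (adjusted p = 0.046).

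BGLU40 rose in fh1-1 by 0.97 ± 0.14 (adjusted p = 0.001), whereas BGLU22 changed by -0.85 ± 0.17 (0.00603) and BGLU41 (AT5G54570) by -0.75 ± 0.23 (0.04). BGLU21 rose with SMIFH2 by 0.73 ± 0.21 (adjusted p = 0.042), and BGLU42 (AT5G36890), known from the response of roots to iron shortage and beneficial bacteria, by 0.66 ± 0.19 (0.048). BGLU28 (AT2G44460), an enzyme of glucosinolate breakdown in sulfur deficiency and the only measured gene of the 15 listed for sulfur deficiency, changed by -1.30 ± 0.17 in fh1-1 (0.000504) and by 0.59 ± 0.17 with SMIFH2 (0.046). It was also the only other family member to pass in SMIFH2 liquid against fh1-1 solid, at 1.27 ± 0.17 (adjusted p = 0.023). BGLU28 had 5.21 and 5.36 with SMIFH2, 4.16 and 3.87 in fh1-1, 4.70 and 4.70 in the liquid control, and 5.48 and 5.17 in wild type on solid medium.

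Of the calls in fh1-1, those of BGLU16, BGLU28, BGLU40, BGLU44 and BGLU47 held in all 16 alternatives. BGLU22 had an adjusted p of 0.05 without array 2 of wild type solid and 0.067 without array 1 of fh1-1. BGLU15 was not called once any 1 array of these groups was left out (0.13 to 0.18) or of SMIFH2 (0.063), and BGLU41 without any of these arrays (0.056 to 0.24) but array 2 of wild type solid. Of the calls with SMIFH2, that of BGLU15 held in all alternatives. BGLU44 missed the threshold without array 2 of SMIFH2 (0.054), BGLU16 without any single control or SMIFH2 array (0.053 to 0.15), and BGLU21 (0.0682 to 0.203), BGLU28 (0.0594 to 0.197) and BGLU42 (0.057 to 0.24) without any single fh1-1, control or SMIFH2 array. In SMIFH2 liquid against fh1-1 solid BGLU28 was not called once any 1 array of that pair of groups was left out (0.132 to 0.297). The 9 calls in fh1-1 were 5 without array 1 of fh1-1, the 5 lower among them were 3 without array 2 of wild type solid, array 2 of fh1-1 or either SMIFH2 array, and the 7 with SMIFH2 were 4 without either fh1-1 array, 4 and 3 without array 1 and 2 of the control, and 2 without either SMIFH2 array.

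**Figure D5:**
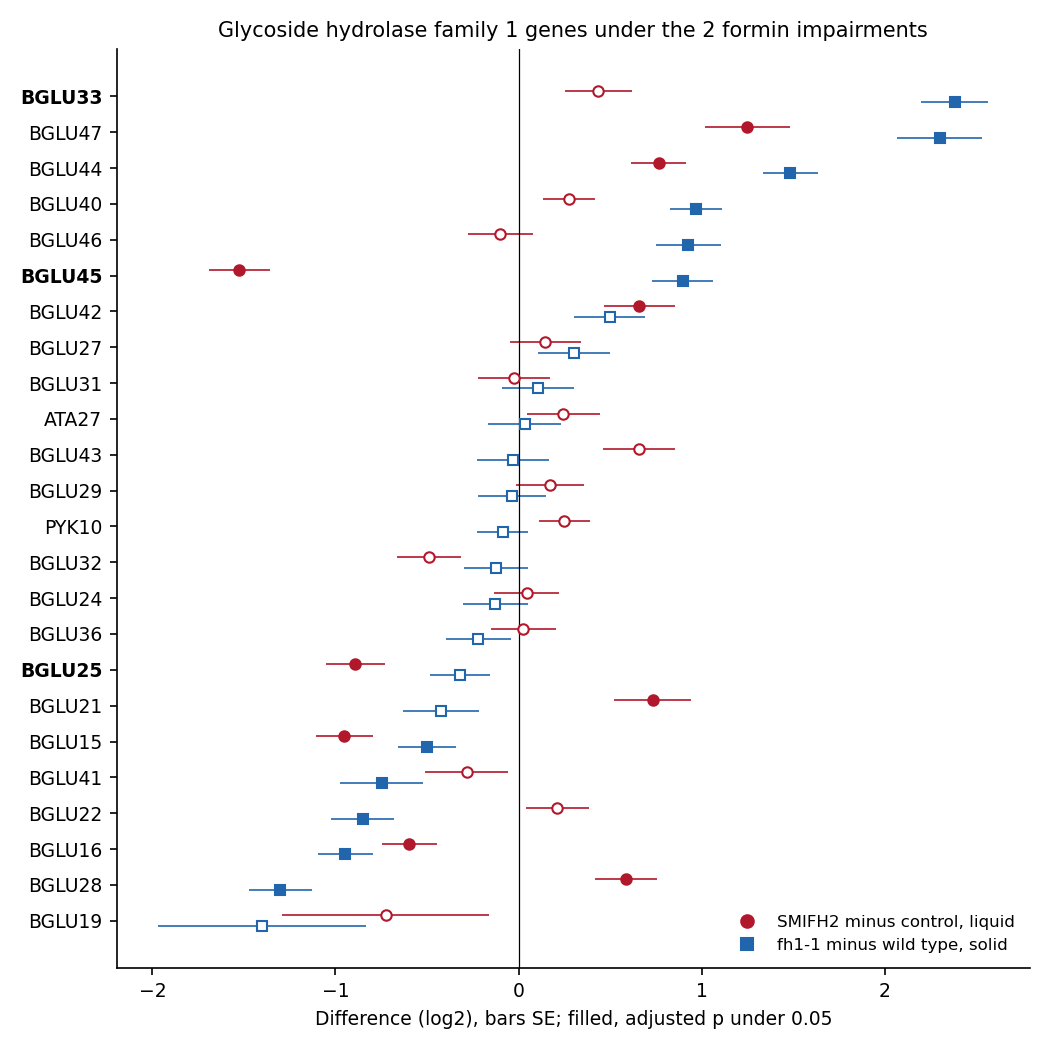
Log2 differences with SE (horizontal axis) for the 24 measured family genes, with circles for SMIFH2 minus control in liquid medium and squares for fh1-1 minus wild type on solid medium, filled where the adjusted p is under 0.05. BGLU33 is at the top with 2.38 in fh1-1, and BGLU45 is the only gene filled on opposite sides of 0 with the mutant above and the drug below.

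UDP-glycosyltransferases attach glucose or another sugar to small molecules. All genes with a symbol starting with UGT were listed, and 51 of 58 were measured. In fh1-1 5 were higher and 14 lower, beside 10.9% and 11.7% of all genes, with a median of -0.23 beside -0.05. With SMIFH2 5 were higher and 8 lower, beside 7.78% and 7.07%, with a median of -0.10 beside -0.02. Both counts of higher genes were near these shares. The count lower in fh1-1 was 9, 8, 4 and 6 without array 1 or 2 of wild type solid or array 1 or 2 of fh1-1, and the count higher was 3 without array 2 of fh1-1. The count lower with SMIFH2 was 4 without either fh1-1 array, 5 and 3 without array 1 or 2 of the control, and 1 without either SMIFH2 array.

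Genes with the most similar profiles were sought among 319 genes with a symbol whose group means spanned at least 1, by Pearson correlation over the 8 arrays. The 8 arrays form 4 groups, so these values describe likeness and carry no test. Closest to BGLU25 were the defensin gene PDF1.4 (AT1G19610, r = 0.978) and the calmodulin-like gene CML41 (AT3G50770, r = 0.955), the only 2 above 0.9. The pectin methylesterase gene ATPMEPCRB (r = 0.869), the immune receptor gene CSA1 (r = 0.857) and the peroxidase gene PRXCA (r = 0.813) followed. PDF1.4 had means of 6.52 with SMIFH2, 4.51 in fh1-1, 7.65 in the liquid control and 4.38 in wild type on solid medium, so it too was high in both liquid groups.

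BGLU33 had 42 of the 319 genes above r = 0.9, led by TROL (AT4G01050, r = 0.980), a thylakoid protein that anchors ferredoxin-NADP reductase, and LHB1B2 (AT2G34420, r = 0.963), a light-harvesting protein of photosystem II. FACT, an acyltransferase of suberin waxes (r = 0.957), the cold-regulated gene KIN2 (r = 0.956) and the plastid division gene FTSZ2-1 (r = 0.954) came next. TROL had means of 11.17 with SMIFH2, 11.23 in fh1-1, 10.67 in the liquid control and 9.68 in wild type on solid medium. BGLU45 had none of the 319 above 0.9: the closest were EXO (AT4G08950, r = 0.886), a gene of brassinosteroid-promoted growth, ATPMEPCRB (r = 0.847), the carboxypeptidase-like gene scpl35 (r = 0.836), the wall enzyme gene XTH16 (r = 0.761) and the auxin-response gene IAA29 (r = 0.751).

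Beside these profiles stand the markers of shoot and root tissue, since whole seedlings mix both. The summed level of 9 measured shoot markers was 4690 and 5039 with SMIFH2, 4981 and 4854 in fh1-1, 2128 and 2195 in the liquid control, and 1517 and 1471 in wild type on solid medium (linear scale). It was thus lowest where BGLU33 was lowest. On the linear scale the sum rests mostly on the brightest markers RCA, SBPASE and HPR (log2 means of 11.13, 10.43 and 9.72 in fh1-1). The listed markers YAB2 and YAB3 did not pass in fh1-1 (0.36 ± 0.20 and 0.03 ± 0.18) or with SMIFH2 (-0.34 ± 0.20 and -0.21 ± 0.18). In the list, 7 of the 9 were higher in fh1-1, beside 10.9% of all genes, 4 with SMIFH2, beside 7.78%, and 4 in liquid against solid medium, beside 2.22%, the last count being 0 or 1 without any single array of the 8 (limma).

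Only 2 of 23 root markers were measured, the root hair expansins EXPA7 and EXPA18, with summed levels of 30.1 and 38.9 with SMIFH2, 35.4 and 52.5 in fh1-1, 17.6 and 14.5 in the liquid control, and 18.9 and 22.4 in wild type on solid medium. They were highest in the 2 groups with impaired formins, as AT1G61795 and BGLU47 were, and their part in any result was not tested. Both passed as higher in fh1-1 and with SMIFH2. Leaving out any single array of the groups compared, except array 1 of SMIFH2, left 1 of them or neither past the threshold (limma). None of the 11 listed xylem markers and none of the 13 seed markers was among the genes measured here, so lignifying cells were not followed.

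Neighbouring genes in the RefSeq order were examined for each of the 3. Next to BGLU33 on one side lie AT2G32870 and AT2G32880, which also had their lowest mean in wild type on solid medium. AT2G32870 had means of 8.48 with SMIFH2, 8.32 in fh1-1, 6.10 in the liquid control and 4.10 in wild type on solid medium, and it rose by 4.22 ± 0.20 in fh1-1 (adjusted p = 1.9e-06, limma) and by 2.38 ± 0.20 with SMIFH2 (adjusted p = 7.2e-05). AT2G32880 rose by 1.29 ± 0.15 in fh1-1 (adjusted p = 0.00024) and had 0.32 ± 0.15 with SMIFH2 (adjusted p = 0.198). Both were higher in liquid control than in wild type on solid medium, by 2.00 and 1.12 (adjusted p = 0.00088 and 0.0033). On the other side, AT2G32850 and AT2G32840 did not pass in any comparison. Each of these calls held in all 16 alternatives.

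Beyond BGLU46, the measured neighbours of BGLU45 were AT1G61795, which rose by 1.24 ± 0.16 in fh1-1 (adjusted p = 0.00042, limma) and by 0.97 ± 0.16 with SMIFH2 (adjusted p = 0.0028), and AT1G61840, which did not pass in any comparison. The only measured neighbour of BGLU25, AT3G03620, did not pass in any either. In the RefSeq annotation BGLU25 overlaps the gene EDA5, and BGLU45 overlaps the long noncoding RNA genes AT1G08433 and AT1G08437. None of these 3 has a listed probe set, and whether their transcripts add to the signals of BGLU25 and BGLU45 was not tested.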

How the data were processed

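RNA of 8 seedling pools, described by the labels as biological replicates, was hybridised to 8 Affymetrix gene arrays, 2 per group. The authors deposited log2 expression values per probe set, and the submitters' processing notes name Affymetrix Expression Console 1.4, RMA and Transcriptome Analysis Console 3.1. RMA corrects background, quantile-normalises and summarises probes, so differences in total RNA between groups are removed. Depth does not apply to arrays, and the 2 arrays per group limit the precision.

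Of 38408 probe sets, 17504 were listed in the platform annotation, 16746 of them with 1 gene and 758 with several, which were left out. Where a gene had several probe sets (163 genes) the one with the highest mean was kept, giving 16554 genes. Symbols were updated through RefSeq's TAIR10.1 table. The annotation build of the array is not stated, so no coordinates are given.

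A limma 3.58.1 model (R 4.3.3) of the 4 group means was fitted to all 8 arrays and all genes, with moderated variances (5.81 prior and 4 residual degrees of freedom) and Benjamini-Hochberg adjustment over 16554 genes at 0.05. The fit was tested on simulated data. Figures were drawn with matplotlib 3.10.9 (Python 3.11.15).

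The 3 genes, the gene lists and the tests were chosen with earlier results of these data known. Named besides the 3 genes were family members past the threshold in a tested comparison, up to 3 such genes per other list and comparison, and the 5 most similar profiles for each gene. PYK10, the glycosyltransferases of the lignin list and the neighbouring genes were named outside this rule. Alternatives were fits to the 4 arrays compared, the replicate block, every probe set, a filter on low levels, cyclic loess, quantile normalization, a trended robust prior, averaged probe sets per gene, and leaving out each array. When they were run on lists and other named genes, this was chosen after seeing the data.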

Additional observations from a re-analysis of the deposited data

Results flagged for a closer look

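In 5 of the 24 measured family genes every array with SMIFH2 lay on one side of its control arrays. In the same genes every fh1-1 array lay on the other side of its wild-type arrays. The share of all genes with this pattern was not computed, so the count is not read as a trait of the family. BGLU45 had -1.53 with SMIFH2 and 0.90 in fh1-1. BGLU28 had 0.59 with SMIFH2 and -1.30 in fh1-1, BGLU21 had 0.73 and -0.42, BGLU22 had 0.21 and -0.85, and PYK10 had 0.25 and -0.087 in the same order. Of these values, those of PYK10, of BGLU21 in fh1-1 and of BGLU22 with SMIFH2 did not pass the threshold. The difference between the drug and mutant effects was not tested. For BGLU45 that difference contains the comparison of liquid control with wild type on solid medium, by which the gene was chosen.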

How the results depend on the processing

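Of 192 alternative values for the 3 genes in 4 comparisons, 184 kept their direction and side of the threshold or, where no test was made, moved by less than 1 SD. BGLU25 in SMIFH2 liquid against fh1-1 solid no longer passed over every probe set (1.98, adjusted p = 0.0951), where 38408 values are tested. Leaving out single arrays, it ranged from 1.93 to 2.02 (adjusted p = 0.00225 to 0.102), and the cause of the lost calls was not tested. Between liquid control and wild type solid, leaving out single arrays gave 2.37 to 2.73 for BGLU25 and 1.31 to 1.73 for BGLU33. With the replicate number as a block, which changed no call for the 3 genes, BGLU25 had adjusted p values of 0.00956 with SMIFH2, 0.241 in fh1-1 and 0.0124 in SMIFH2 liquid against fh1-1 solid, where the genes past the threshold were 12 in place of 24. Deviations of same-numbered arrays from their group means correlated at -0.06 to 0.01, so the numbers were taken as names only. Under the block BGLU15 in fh1-1 (adjusted p = 0.0525), BGLU28 (0.056) and BGLU42 (0.0623) with SMIFH2, and BGLU28 in SMIFH2 liquid against fh1-1 solid (0.0519) were not called, and glycosyltransferases lower with SMIFH2 were 5 in place of 8 and shoot markers higher in liquid against solid medium 2 in place of 4.

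Counts over all genes moved by more than 1.5 times as follows. In fh1-1 6205 of 38408 probe sets passed over every probe set (16.2%), against 3734 of 16554 genes (22.6%). The 3734 genes became 2324 without array 2 of wild type solid, and 2056 and 2297 without array 1 and 2 of fh1-1. With SMIFH2 2459 became 1565 without array 1 of the control and 1250 and 1406 without array 1 and 2 of SMIFH2. In SMIFH2 liquid against fh1-1 solid 24 became 15 with the 4 arrays compared, 38 with the trended robust prior, 5 without array 1 of SMIFH2, and 0 in limma over every probe set, where 2509 had an unadjusted p under 0.05. In liquid against solid medium 779 became 321 with the 4 arrays compared, 508 and 284 without array 1 and 2 of wild type solid and 488 without array 2 of the control. The lone array left in a group is assumed to vary like the other groups.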
